A study of Mus musculus with 6 samples.

Results

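Argonaute (Ago) footprints were examined on 7 genes for RNA-binding proteins: the AU-rich element binding proteins Zfp36, Zfp36l1, Zfp36l2, Elavl1 and Hnrnpd, and the APOBEC1-associated proteins Rbm47 and Syncrip. The footprints were every row of the authors' deposited table that overlapped 1 of these genes on the gene's own strand in the GENCODE vM1 annotation of mouse build mm9. This gave 18 of 6270 footprints, on 6 of the 7 genes. Elavl1 (chromosome 8, 4284782 to 4325100, minus strand) carried none.

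The data are Ago HITS-CLIP of bone-marrow-derived macrophages matured for 7 days with M-CSF: Ago was pulled down with antibody 2A8 after cross-linking, and the short RNAs that it protects were sequenced. There were 3 libraries from Apobec1-/- mice (KO) and 3 from WT mice, drawn from 3 pairs of littermates on the C57BL/6 strain, aged 6 to 12 weeks. No other allele or treatment is named in the labels for either genotype. The authors deposited 1 combined occupancy per genotype for each footprint, the footprint signal divided by the RNA-Seq expression of its transcript. They also gave how many KO and how many WT libraries held it. Read numbers are not in the table, and sequencing depth is therefore unknown. Footprints of 1 gene share their transcript, and so are not replicates of each other. Differences between genotypes have no replicate check and no test, and a 2-fold rule stands in for one. The libraries are made from whole cultures, so fewer cells of a kind and less RNA per cell cannot be told apart. Apobec1 itself carried 3 footprints, each held by 2 or 3 KO libraries, with a summed occupancy of 0.312 in KO and 0.372 in WT. The deleted part of Apobec1 is not named in the labels, so these footprints do not check the genotype. Of the macrophage marker genes listed, 4 of 6 carried a footprint (Emr1, Csf1r, Itgam and Fcgr1, but not Cd68 or Mertk). The counts were 0 of 5 for T and B cells, 0 of 4 for neutrophils and 0 of 3 for fibroblasts. Only 2222 genes carried a footprint at all, so absence from such short lists does not measure which cells were present.

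Proteins of the Zfp36 family bind AUUUA-containing elements in 3′ UTRs and recruit deadenylases, so that the mRNA is degraded. In macrophages Zfp36 (tristetraprolin) is best known for limiting Tnf mRNA. Elavl1 (HuR) binds U-rich and AU-rich RNA and mostly stabilises it, while Hnrnpd (AUF1) can promote decay. Rbm47 is an RNA-binding cofactor of APOBEC1, the deaminase that turns C to U in AU-rich stretches of mRNA, and Syncrip (hnRNP Q) was described in APOBEC1 complexes. The mRNAs of these regulators have 3′ UTRs of their own, which Ago, guided by the seed of a miRNA (bases 2 to 8), can also occupy.

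Searching the 18 footprints for the seed matches of 29 miRNA families gave a single match, and it is shown here, with others just outside the footprints, because Ago is guided by such matches. Footprint 3 of Zfp36l1 holds a match to miR-29 followed by an A, which makes it an 8-base site. Crossing an edge or within 50 bases of a footprint there were 8 further matches. Those shown here are to miR-29 again, beside Zfp36, and to miR-223 and miR-146, beside Syncrip and Hnrnpd, since both are miRNAs known from macrophages. Capitals mark the match in the genomic sequence and the seed in the RefSeq miRNA (table of build GRCm38.p6). Sites are in mm9, minus strand, written 5′ to 3′ along the transcript.
mmu-miR-29a-3p: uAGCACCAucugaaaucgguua
Zfp36l1 footprint 3, chr12:81209730-81209759: agacttgatttTGGTGCTaaagttccccaa
Zfp36 beyond footprint 1, chr7:29162416-29162445: acccatttcccTGGTGCTgggctggggcag
mmu-miR-223-3p: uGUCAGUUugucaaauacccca
Syncrip beyond footprint 1, chr9:88348098-88348127: agtcagactaaAACTGACaattgtacagca
mmu-miR-146a-5p: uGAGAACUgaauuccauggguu
Hnrnpd at footprint 2, chr5:100390194-100390223: gtttaattctgAGTTCTCattaaaagaatt

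The miR-29 match of Zfp36 begins 7 bases past the 3′ edge of footprint 1 and is not followed by an A. The miR-223 match of Syncrip begins 5 bases past the 3′ edge of footprint 1 and is an 8-base site. miR-223 is abundant in myeloid cells. The miR-146 match of Hnrnpd crosses the 3′ edge of footprint 2 and is an 8-base site too, and miR-146a is known as an inducible miRNA of Toll-like receptor signalling. The share of the 18 footprints with any seed match was 5.56% (95% Wilson interval 0.988% to 25.8%), beside 21.9% of all 6270. With 50 bases added on each side the shares were 38.9% of the 18 and 41.4% of all. Among all footprints, 0.893% hold the miR-29 match and 0.271% its 8-base form. With 50 bases added on each side, 1.95% hold the miR-29 match, 1.39% that of miR-223 and 1.53% that of miR-146. A match is a description of the sequence and does not show which miRNA guided Ago there.

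AUUUA, written ATTTA in DNA letters and searched on the transcript strand, is the core of the elements that proteins of the Zfp36 family bind. It was found in 3 of the 18 footprints (16.7%, 95% Wilson interval 5.84% to 39.2%), beside 11.9% of all footprints. They are footprints 1 and 5 of Zfp36l1 and footprint 3 of Rbm47, and sites from each are shown with ATTTA in capitals.
Zfp36l1 footprint 1, chr12:81210447-81210476: ttgatacATTTAagctcagcccctttccca
Zfp36l1 footprint 5, chr12:81209408-81209437: ttatcaaaacgtATTTAttgccaaactatg
Zfp36l1 footprint 5, chr12:81209367-81209396: aattttgttcatATTTAtcgggatgacaaa
Rbm47 footprint 3, chr5:66408141-66408170: ataatattaataATTTAaaaaaaaggaaaa

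Footprint 5 of Zfp36l1 held 3 copies, 2 of them within TATTTAT, a 7-base form present in 1.80% of all footprints. It also had the lowest G+C content of the 18 (25.0%). The footprints of Zfp36, whose mRNA is known to carry AU-rich elements of its own, held no ATTTA, nor did the 50 bases on either side of them. Across the 18, G+C content had a median of 42.7% and a range of 25.0% to 55.1%, beside a median of 42.9% in the table.

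All 18 footprints lay in an annotated 3′ UTR, as did 96.7% of the table, and all 6 genes run on the minus strand. Their lengths were 63 to 89 nt. The central 25 bases of each occurred once in the mm9 genome, and the rest of each footprint was not searched for copies. Occupancy was mostly above the middle of the table: 15 of the 18 had a mean at or above the table median of 0.425. The median of the 18 was 0.796 in KO and 1.05 in WT, beside 0.377 in KO and 0.406 in WT over all footprints.

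**Figure D1:**
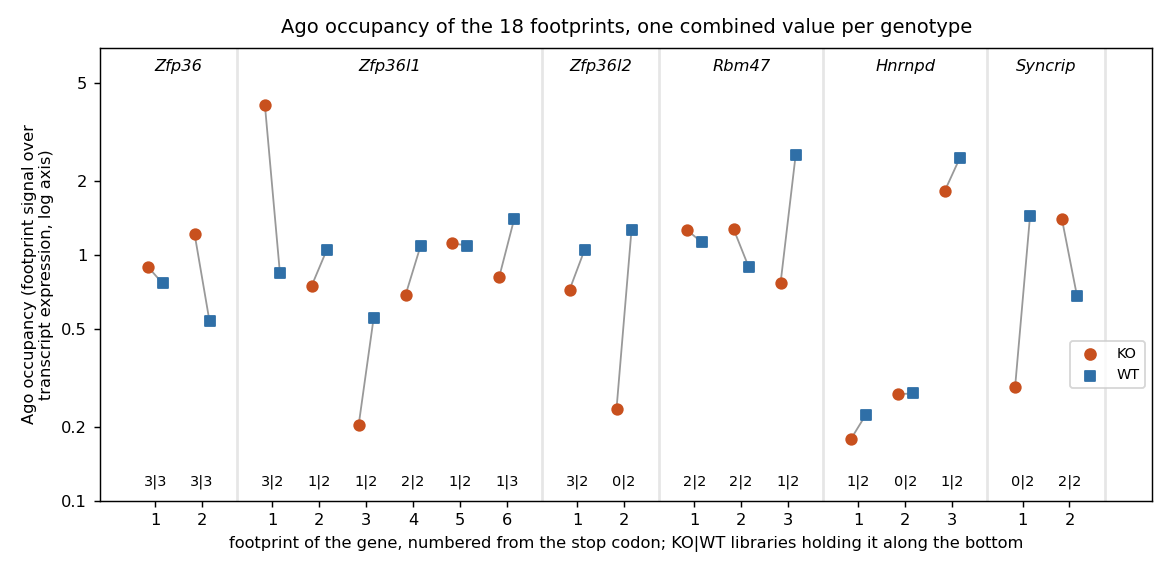
Ago occupancy (log axis) of each of the 18 footprints in KO (circles) and WT (squares), numbered from the stop codon within each gene, with the number of KO and WT libraries holding the footprint along the bottom. Each point is the authors' combined value of a genotype and has no error bar. Footprint 1 of Zfp36l1 is the highest KO value (4.10), and the footprints that no KO library held (0 on the left) are in Zfp36l2, Hnrnpd and Syncrip.

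Among the 18 footprints 7 were higher and 11 lower in KO, with a median log2 ratio of KO over WT of -0.39, beside 48.7% higher and a median of -0.04 over all footprints. Ratios past 2-fold were reached by 3 footprints higher in KO (16.7%), against 18.9% of all footprints, and by 4 lower in KO (22.2%), against 24.2%. These shares are near those of the table and set the genes apart in neither direction. The 4 lower footprints were each held by fewer than 2 KO libraries. They thus entered the table, which asks for at least 2 libraries of 1 genotype, through WT, where they are higher. The 3 higher footprints were held by at least 2 libraries of both genotypes. By summed occupancy per gene, 0 of the 6 genes was 2-fold higher (11.7% of all genes) and 1 was 2-fold lower (17.9% of all genes).

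Zfp36 was the gene with the most complete detection and the only 1 of the 6 with every footprint higher in KO. Its footprint 1 (chromosome 7, 29162442 to 29162510), 67 nt past the stop codon, had an occupancy of 0.899 in KO and 0.767 in WT (log2 ratio 0.23). Footprint 2 (29162143 to 29162205), 372 nt past the stop codon of a 774-nt 3′ UTR, had 1.22 in KO and 0.537 in WT (log2 ratio 1.18). All 6 libraries held both, as they held 5.89% of all footprints. The sums were 2.12 in KO and 1.30 in WT (log2 ratio 0.70). Leaving out footprint 2 brings it to 0.23.

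Zfp36l1, the paralog with the most footprints, carried 6 along an 1829-nt 3′ UTR. Footprint 1 (chromosome 12, 81210397 to 81210476), which begins 100 nt past the stop codon, had 4.10 in KO and 0.849 in WT. That is 4.82-fold, a log2 ratio of 2.27 at percentile 96.9 of the table, and 3 KO and 2 WT libraries held it. Of the other five, footprint 3 (81209704 to 81209781), with the miR-29 match, was past 2-fold in the other direction, with 0.203 in KO and 0.555 in WT and a log2 ratio of -1.44. It was found in 1 KO and 2 WT libraries.

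Footprint 5, with the ATTTA copies, was nearly equal at 1.12 in KO and 1.09 in WT (log2 ratio 0.03). Footprints 2, 4 and 6 had 0.752, 0.688 and 0.818 in KO, against 1.05, 1.09 and 1.41 in WT. The same mRNA thus had 1 place well above and 4 places below WT. The gene's sums were 7.68 in KO and 6.05 in WT (log2 ratio 0.34), and that direction rests on footprint 1. Without it the sums were 3.58 in KO and 5.20 in WT (log2 ratio -0.54). An antisense lincRNA, Gm17591, overlaps footprints 1 to 5 on the plus strand. Strand was read from the footprint identifiers.

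Zfp36l2 was the 1 gene past 2-fold by its sum, with 0.961 in KO and 2.32 in WT (log2 ratio -1.27), and both of its footprints were lower in KO. Footprint 1 (chromosome 17, 84584846 to 84584908), 185 nt past the stop codon, had 0.724 in KO and 1.05 in WT, and was held by 3 KO and 2 WT libraries. Footprint 2 (84583694 to 84583764), 1329 nt past it in a 1822-nt 3′ UTR, had 0.237 in KO and 1.27 in WT. Its log2 ratio of -2.42 was the lowest of the 18. No KO library held footprint 2, and the sources used here do not say how a KO value above 0 then arises. Without it the gene's log2 ratio was -0.54.

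Within 50 bases of that footprint of Zfp36l2 lay seed matches of 3 families: miR-27 and miR-221 before its 5′ edge, and miR-181 beyond its 3′ edge. The miR-221 match lies 17 bases from the edge and is the 8-base site among them, so it is shown with its miRNA. This match occurs within 50 bases of or inside 1.42% of all footprints, and inside 0.590%.
mmu-miR-221-3p: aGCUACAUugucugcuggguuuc
Zfp36l2 before footprint 2, chr17:84583770-84583799: attatagagacATGTAGCaataatggggga

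**Figure D2:**
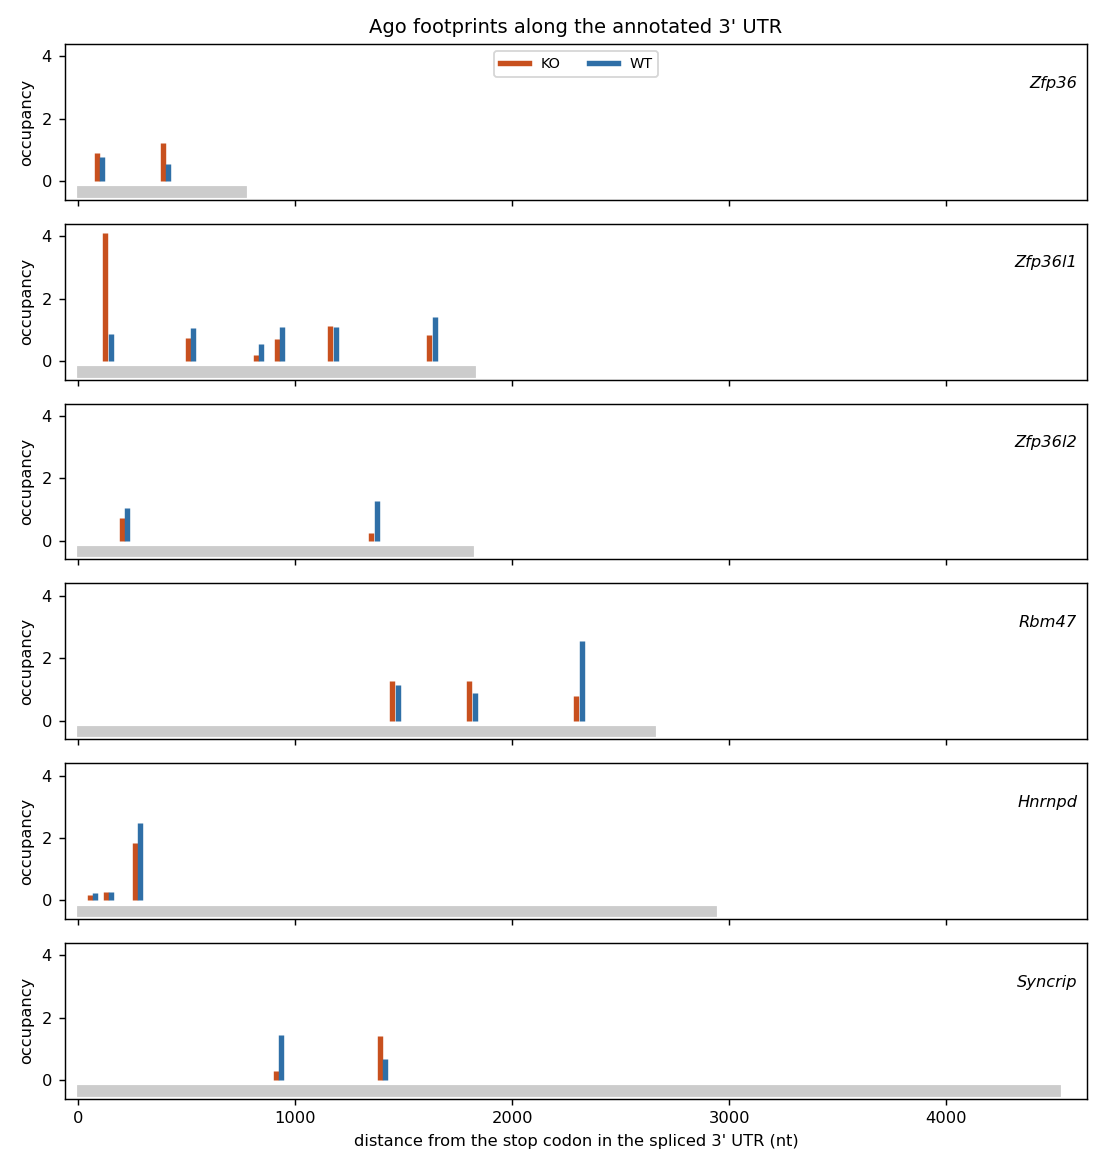
Occupancy of each footprint at its place along the spliced 3′ UTR (grey bar, to scale, in nt from the stop codon) of the annotated transcript, with the KO bar drawn just left and the WT bar just right of the footprint's centre. Zfp36l1 carries footprints along most of its 3′ UTR, those of Rbm47 begin past the middle of it, and the 3 of Hnrnpd lie within 307 nt of the stop codon.

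Rbm47, the cofactor of APOBEC1, carried 3 footprints in the distal part of a 2657-nt 3′ UTR, and they did not move together. Footprint 1 (chromosome 5, 66408951 to 66409017) stood at 1.27 in KO and 1.13 in WT (log2 ratio 0.17). Footprint 2 (66408593 to 66408666) stood at 1.27 in KO and 0.894 in WT (log2 ratio 0.51). For both, 2 KO and 2 WT libraries held the footprint.

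Footprint 3 of Rbm47 (66408104 to 66408170), the ATTTA-containing one, 2275 nt past the stop codon, had 0.773 in KO and 2.55 in WT. Its log2 ratio was -1.72, and it was found in 1 KO and 2 WT libraries. It had the highest WT occupancy of the 18, at percentile 96.0 of the table. It made up 23.3% of the gene's summed occupancy in KO and 55.8% in WT. The sums were 3.31 in KO and 4.57 in WT (log2 ratio -0.46). Without footprint 3 they were 2.54 in KO and 2.02 in WT (log2 ratio 0.33), so the direction of the sum rests on that place.

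Hnrnpd was the gene whose footprints differed least from each other in their ratios. Its footprints 1 and 2 lie 2 nt apart near the stop codon (chromosome 5, 100390279 to 100390349 and 100390210 to 100390276). Footprint 1 had 0.178 in KO and 0.224 in WT, and footprint 2 had 0.272 in KO and 0.274 in WT. Footprint 3 (100390076 to 100390140) reached 1.82 in KO and 2.48 in WT, or 80.2% of the gene's summed occupancy in KO and 83.3% in WT.

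The 3 log2 ratios of Hnrnpd ran from -0.44 to -0.01. That range of 0.43 stood at percentile 5.05 of the 218 genes with 3 footprints above 0 in both genotypes, where the median range was 1.82. The sums were 2.27 in KO and 2.98 in WT (log2 ratio -0.39). No Hnrnpd footprint was found in more than 1 KO library, and footprint 2 was found in none. Each was held by 2 WT libraries.

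Syncrip showed the opposite picture, with footprints that diverged past 2-fold in both directions. Footprint 1 (chromosome 9, 88348122 to 88348210), beside the miR-223 match, had 0.289 in KO and 1.45 in WT (log2 ratio -2.32). No KO library and 2 WT libraries held it. Footprint 2 (88347649 to 88347726), 395 nt further on, had 1.40 in KO and 0.684 in WT (log2 ratio 1.03), with 2 libraries of each genotype. The log2 range of 3.35 between them stood at percentile 93.8 of the 422 genes with 2 such footprints (median range 1.08).

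The Syncrip sums were 1.69 in KO and 2.13 in WT (log2 ratio -0.33), a direction that rests on footprint 1, which no KO library held. Without it the log2 ratio was 1.03. Footprint 2 made up 82.9% of the sum in KO and 32.1% in WT. Both footprints also overlap Gm20537, a protein-coding locus annotated on the same strand, so the transcript behind the signal cannot be told from position alone. The KO value of footprint 1 was shared exactly with 7 other footprints of the table. Footprint 2 of Zfp36l2 and footprint 3 of Rbm47 each shared theirs with 2 others, and footprint 2 of Hnrnpd with 1. Of the 18 footprints, 8 shared their KO value with another footprint and 3 their WT value, beside 33.3% of the table's KO values and 18.6% of its WT values above 0.

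**Figure D3:**
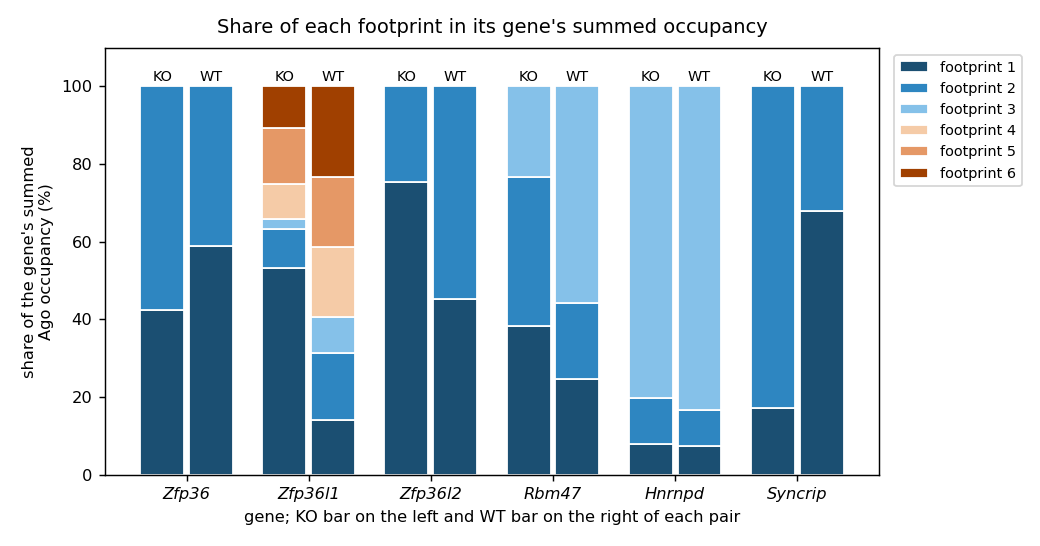
Share of each footprint in the summed Ago occupancy of its gene (percent, each bar adding to 100), with the KO bar left of the WT bar for each gene and footprints numbered from the stop codon. Footprint 1 of Zfp36l1 makes up 53.4% in KO and 14.0% in WT, footprint 2 of Syncrip 82.9% in KO and 32.1% in WT, while the bars of Hnrnpd are nearly alike.

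Shares within a gene set the places of 1 mRNA against each other. Footprint 1 of Zfp36l1 made up 53.4% of the gene's sum in KO and 14.0% in WT. Footprint 2 of Zfp36 made up 57.6% in KO and 41.2% in WT. Footprint 1 of Zfp36l2 made up 75.4% in KO and 45.3% in WT. In Rbm47, footprint 2 made up 38.4% in KO and 19.6% in WT, and footprint 1 38.3% in KO and 24.6% in WT. For all 6 genes the footprint with the largest share in KO was held by at least as many KO libraries as any other footprint of that gene. In Zfp36, Rbm47 and Hnrnpd this was a tie. Share and library count come from the same KO libraries, so they are not independent.

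The number of libraries holding a footprint moved with its ratio. Of the 8 footprints held by at least 2 libraries of both genotypes, 6 were higher in KO, with a median log2 ratio of 0.37. In the table the same set had 68.5% higher and a median of 0.42. Of the 10 held by fewer than 2 KO libraries, 1 was higher (footprint 5 of Zfp36l1) and the median was -0.63, beside 33.2% higher and a median of -0.55 in the table. All 18 footprints were held by at least 2 WT libraries, as 94.9% of all footprints were, and 44.4% were held by at least 2 KO libraries, beside 40.1% of all. The table holds footprints found in at least 2 libraries of 1 genotype. Those found in few KO libraries could enter it through WT, whereas those found in few WT libraries needed at least 2 KO libraries. The part of this entry rule in the ratios was not tested.

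**Figure D4:**
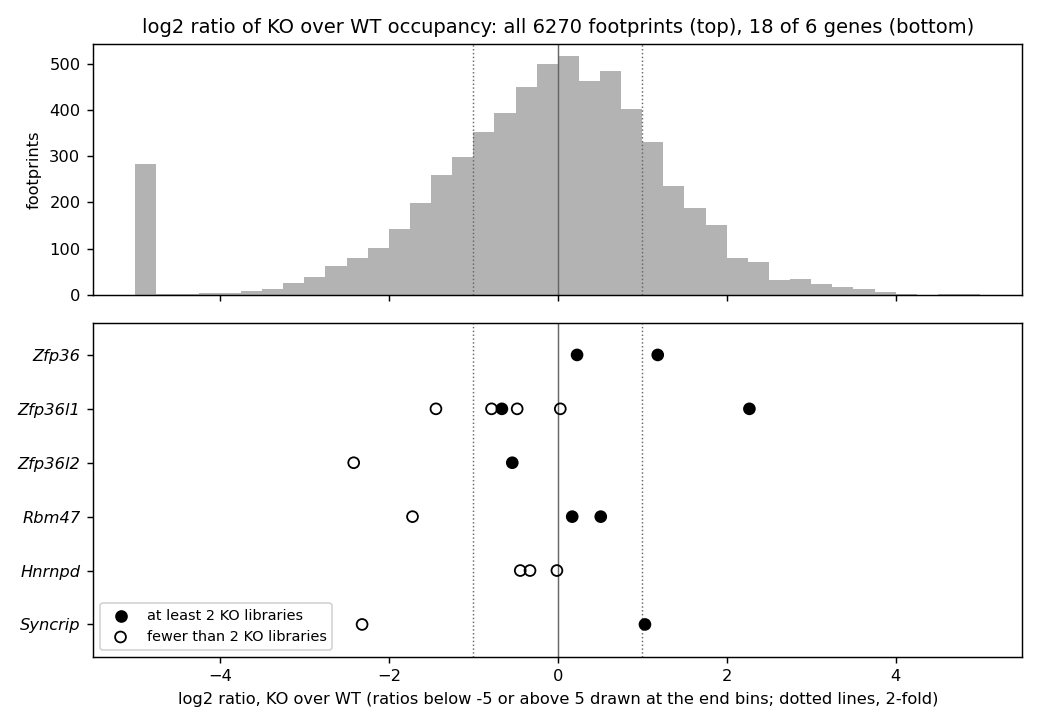
Histogram of the log2 ratio of KO over WT occupancy for all 6270 footprints (top; ratios beyond the axis are drawn in the end bars) and the ratio of each of the 18 footprints by gene (bottom; filled, at least 2 KO libraries; open, fewer). The 18 run from -2.42 to 2.27, inside the bulk of the table, and 6 of the 8 filled points lie right of 0.

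APOBEC1 edits C that has A or U on both sides in AU-rich RNA. A C with A or T on both sides (ACA, ACT, TCA or TCT) was counted 2 to 8 times in each of the 18 footprints, with a median of 5.5, beside a median of 6 in the table. Whether any of them is edited in these cells was not examined. The central 30 bases of the footprints furthest apart in ratio are shown, with each such C in capitals.
Zfp36l1 footprint 1 (log2 ratio 2.27), chr12:81210422-81210451: tcccagaaCaaccttggtatgttaccctcc
Zfp36 footprint 2 (1.18), chr7:29162160-29162189: gtCtcctggaatCttaagtgctgtgaagag
Rbm47 footprint 3 (-1.72), chr5:66408123-66408152: aaaaaaggaaaaaCtatgcaCtaaCttaac
Syncrip footprint 1 (-2.32), chr9:88348152-88348181: aaaaaaaaagtgcatccgaaCttgtaCtaa
Zfp36l2 footprint 2 (-2.42), chr17:84583715-84583744: ccgaaCttgccttaaatCtttCtCaaccag

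Other genes of these pathways were read from lists, without the members. Of 36 further genes for AU-rich or 3′ UTR binding proteins and their regulators, 20 carried a footprint, 7 with higher and 13 with lower summed occupancy in KO. Their median log2 ratio was -0.44, beside -0.04 over all 2222 genes, of which 47.8% were higher in KO. Of the 20, 1 was past 2-fold higher and 5 past 2-fold lower, where 11.7% of all genes were 2-fold higher and 17.9% 2-fold lower. Mapk14, the p38 kinase that acts upstream of Zfp36 phosphorylation, was highest with 0.221 in KO and 0.0630 in WT (log2 ratio 1.78). Mapkapk2, the kinase that phosphorylates Zfp36, followed with 0.0982 in KO and 0.0624 in WT (0.64). Lowest was Hnrnpl, a splicing regulator (0.0512 in KO and 0.207 in WT, -1.98). Next was Hnrnpab, an hnRNP described with APOBEC1 (0.560 in KO and 2.08 in WT, -1.89). Mapk14, Mapkapk2 and Hnrnpl each rest on 1 footprint of low occupancy, below the medians of all footprints (0.377 in KO and 0.406 in WT). That of Hnrnpl was held by 1 KO library and 2 WT libraries, so it entered the table through WT, where it is higher.

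The deadenylation, decapping and exonuclease machinery that Zfp36 proteins recruit had 12 of 36 listed genes with a footprint, 6 higher and 6 lower in KO (median 0.14). None of the 12 was 2-fold higher and 2 were 2-fold lower, where 11.7% of all genes were 2-fold higher and 17.9% 2-fold lower. The count of lower genes is near that share. Patl1, a decapping factor, had 3.52 in KO and 2.31 in WT (0.61), and Tob2, which binds deadenylases, 1.31 in KO and 0.895 in WT (0.55). The deadenylase Cnot7 had 0.257 in KO and 1.16 in WT (-2.17), with its footprint in no KO library. Cnot2, a scaffold of the same complex, was listed at 0 in KO and at 0.770 in WT, again with its footprint in no KO library. Both footprints were held by 2 WT libraries. They thus entered the table through WT, the genotype where they are higher.

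Of 10 further genes of APOBEC1 and its partners 5 carried a footprint, 2 higher and 3 lower in KO. Past 2-fold were Apobec3, higher, and Hnrnpab, lower (-1.89, also on the first list), where 11.7% of all genes were 2-fold higher and 17.9% 2-fold lower. Apobec3, a related cytidine deaminase, had 1.34 in KO and 0.223 in WT (2.58), held by 2 KO libraries and 1 WT library. Its 1 footprint thus entered the table through KO, the genotype where it is higher. Kpna1, an importin, had 4.73 in KO and 3.67 in WT (0.37). Apobec1 had 0.312 in KO and 0.372 in WT (-0.25), and Celf2, an RNA-binding protein on this list and the first, 6.01 in KO and 8.12 in WT (-0.43).

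Among transcripts known for AU-rich elements, 18 of 37 carried a footprint, 8 higher and 10 lower in KO (median -0.30), 2 of them past 2-fold higher and 3 past 2-fold lower. Both counts are near the shares over all genes (11.7% higher and 17.9% lower). The early response gene Ier3 had 1.06 in KO and 0.464 in WT (1.18), and Plau, the urokinase gene, 43.9 in KO and 21.1 in WT (1.06). The transcription factor gene Irf1 had 0.0607 in KO and 1.04 in WT (-4.07), with its footprints in no KO library. The Irf1 footprints thus entered the table through WT, the genotype where the sum is higher. For Dusp6, whose product dephosphorylates ERK, the sums were 0.687 in KO and 3.59 in WT (-2.38).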

How the data were processed

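Ago HITS-CLIP of macrophages gave 3 KO and 3 WT libraries, and genotype was taken from the labels' genotype field. Reads were sorted by length, aligned to mm9 and joined into clusters, and a footprint was cut around each cluster's peak, per the series design text. The tools Bowtie 0.12.8 and bedtools come from the submitters' processing notes. The authors deposited occupancy as a ratio, footprint signal over RNA-Seq expression, with 1 value per genotype, and a count of the libraries of each genotype holding the footprint. The sources used here do not give how the libraries were merged or scaled, nor the unit of the divisor.

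Each footprint was assigned on its own strand in GENCODE vM1, where a 3′ UTR took precedence over coding sequence, that over a 5′ UTR, and exons over introns, on the NCBIM37 sequence, the same assembly as mm9. No footprint ran past the end of its chromosome. Coordinates count from 1. Distances from the stop codon follow the protein-coding transcript whose 3′ UTR holds most of the footprint and, among equals, is longest. Distances along other transcripts were not examined. Log2 ratios used a pseudocount of 0.00161, 50% of the smallest value above 0, which understates differences of low values. Gene values are sums. Seeds were read from RefSeq for 61 of 65 listed miRNA names (miR-124-3p, miR-23b-3p, miR-30b-5p and miR-30d-5p did not match). Intervals are Wilson intervals over footprints, which are not replicates. Python 3.11.15, pandas 2.3.3 and SciPy 1.17.1 were used, and ratios, 2-fold counts and motif counts were tested on simulated data.

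The genes and lists were chosen with earlier results of these data known. Every footprint of the 7 genes is named, and from each list the 2 highest and 2 lowest genes by the log2 ratio of summed occupancy, besides Apobec1, named for its role. The alternatives were a pseudocount of 1, filters on values, on libraries and on position, centring on the table's median, and other summaries per gene.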

Additional observations from a re-analysis of the deposited data

How the results depend on the processing

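Of 76 alternative values, 60 kept their side of 2-fold and their direction and moved by less than 1.5 times (counts within 1.5 times, shares within their interval), and 16 did not. With footprints held by at least 2 libraries of both genotypes alone, the gene log2 ratio (KO over WT) was 0.33 for Rbm47, 1.03 for Syncrip, 1.30 for Zfp36l1 and -0.54 for Zfp36l2, Hnrnpd had no value, and 0 footprints were 2-fold lower in KO. That filter leaves out places found in few KO libraries by construction. By the strongest footprint per gene the log2 ratio was -1.72 for Rbm47, 1.03 for Syncrip, 1.18 for Zfp36, 2.27 for Zfp36l1 and -0.54 for Zfp36l2. By the median over footprints it was 0.17 for Rbm47 and -0.57 for Zfp36l1. With a pseudocount of 1, Zfp36l2 went to -0.76, and 1 footprint was 2-fold higher (footprint 1 of Zfp36l1) and 1 lower (footprint 3 of Rbm47). Adding 50 bases on each side moved the share with a seed match to 38.9%. The filters on 0, on 3′ UTRs and on overlap left out no footprint, so every value stayed as it was by construction. The filter on mean occupancy at the table median likewise left out no footprint of Zfp36, Zfp36l2, Rbm47 or Syncrip. The filter on libraries left out none of Zfp36. Values fixed in these ways are counted among the 60 and are no check of the results.

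No paired analysis was possible because the table holds 1 combined value per genotype, and leaving out each library in turn was not run for the same reason. Depth is unknown, so no interval of an occupancy is given.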
